A study of Homo sapiens with 4 samples.

Results

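The genes described here make glucose or turn over glycogen in liver. They are 10 genes chosen by symbol: PCK1, PCK2, FBP1, G6PC and SLC37A4 of glucose production, GYS2, GBE1 and PYGL of glycogen turnover, and the regulators FOXO1 and PPARGC1A. Rows were found for 9 of them among the 30863 genes of the table, and all 9 were among the 23828 genes that passed the filter on low values. GYS2, the liver glycogen synthase, is not analysed here. RNA was measured by poly(A) RNA sequencing in wild-type HepG2, an immortal line of human liver tumour cells labelled hepatoblastoma. There are 2 AMF libraries, from cells given amentoflavone, a plant biflavonoid, and 2 DMSO libraries, from cells given the solvent, each after 48 h. The treatment is given once as 90 µM AMF and once as Tub B at 80 µM. Agent and dose are therefore uncertain, and AMF means the samples of that name. The cells grew in DMEM with serum, and the labels give neither its glucose content nor a hormone treatment. No label states that replicates are independent cultures, and the p-values therefore reflect the scatter of these libraries, which could be technical.

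As background, gluconeogenesis lets the liver release glucose made from lactate, glycerol and amino acids during fasting. Pyruvate carboxylase and the phosphoenolpyruvate carboxykinases start it, fructose bisphosphatase passes the sugar phosphates on, and glucose-6-phosphatase with its transporter frees glucose in the endoplasmic reticulum, a last step shared with glycogen breakdown. Glucagon raises the transcription of PCK1 and G6PC through CREB, PGC-1alpha and FOXO1, and insulin lowers it by keeping FOXO1 out of the nucleus.

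In AMF, G6PC was higher and FOXO1, PCK2 and SLC37A4 were lower, and the other 5 of the 9 members did not pass an adjusted p of 0.05. These 4 calls, 1 higher and 3 lower, stand beside 31.8% of all genes tested, 15.6% higher and 16.2% lower. Well-measured genes were called more often. At a mean of 100 normalized counts or more the share was 54.7%, with 23.6% higher and 31.1% lower, and 3 of the 6 members at that level were called, all 3 lower. That share of the members is near the background. The groups did not overlap for 7 of the 9 members, 3 higher and 4 lower, against 63.4% of all genes tested, 33.8% higher and 29.7% lower. The median log2 change of the members was -0.13, beside 0.04 over all genes tested. Levels are normalized counts, that is, reads divided by the size factor of the library. Each change is the AMF mean minus the DMSO mean of log2(normalized count + 1), which understates changes of low genes, and was tested with limma and Benjamini-Hochberg adjustment over all genes tested. In bulk RNA, fewer cells that express a gene and less RNA per cell cannot be told apart.

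Depth was 24226586 to 26966210 reads per library, and mitochondrial transcripts took 9.53% and 9.61% of reads in AMF, against 7.73% and 7.69% in DMSO. As a check of the liver label, albumin (ALB) had 122923 and 116049.9 normalized counts in AMF, against 125341 and 117297 in DMSO. The 9 liver markers together took 1.55% and 1.48% of reads in AMF, against 2.02% and 1.97% in DMSO, with 6 lower, 1 higher and 2 not past the test. Of 8 markers of blood, endothelial and stromal cells, 7 had rows, and these summed to 372 and 356 normalized counts in AMF, against 377 and 404 in DMSO. Members of that list moved in both directions. The collagen gene COL1A1 (5.57 and 8.24 normalized counts in AMF, against 116 and 86.2 in DMSO) and the pericyte receptor PDGFRB (26.0 and 13.4 normalized counts in AMF, against 94.0 and 108 in DMSO) fell, by 3.70 and 2.37. The endothelial PECAM1 (289 and 277 normalized counts in AMF, against 145 and 185 in DMSO) and the monocyte CD14 (31.6 and 19.6 normalized counts in AMF, against 5.00 and 12.3 in DMSO) rose, by 0.79 and 1.53. CDH5 and LYVE1 did not pass, COL1A2 had at most 1 read in any library, and PTPRC is not analysed here. The part of these shifts in the changes below was not tested.

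**Figure D1:**
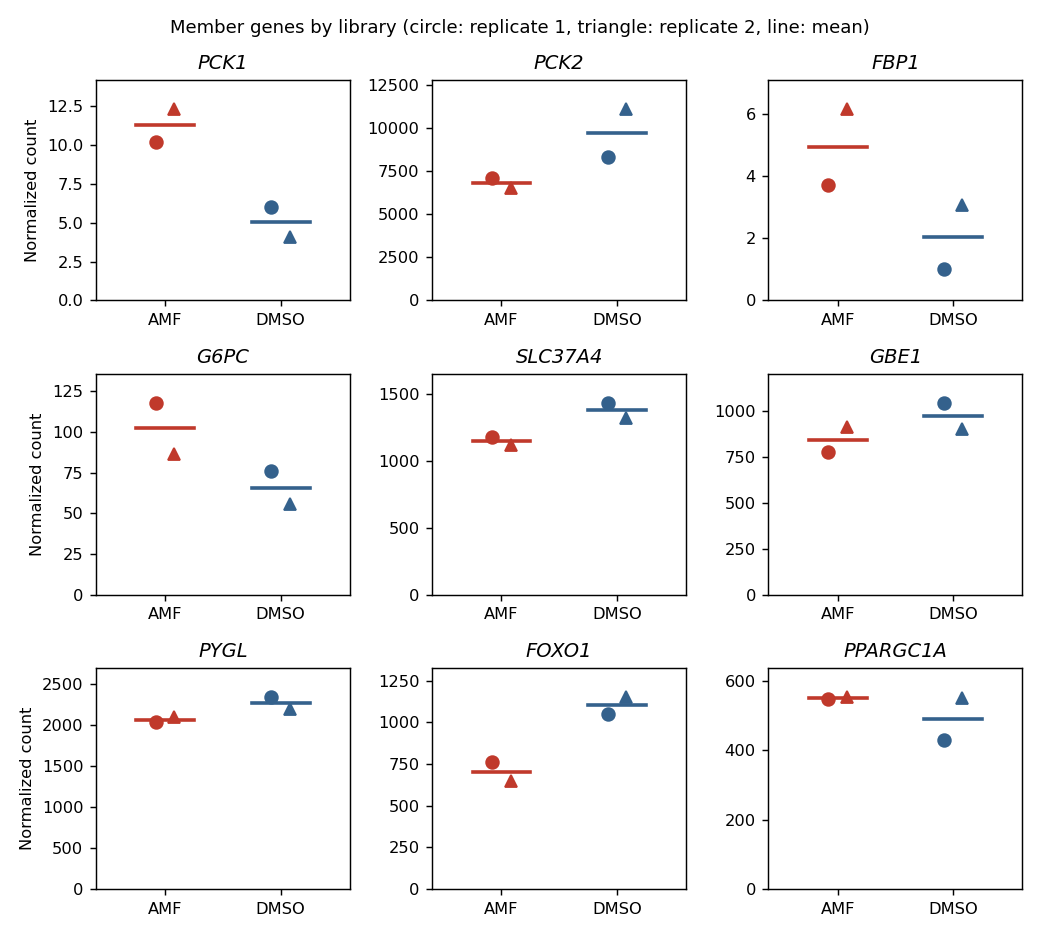
Normalized counts of the 9 members (y axes from 0, own scale per gene) in the AMF and DMSO libraries, with circles for replicate 1, triangles for replicate 2 and a line at the mean. FOXO1, PCK2 and SLC37A4 lie lower and G6PC higher in both AMF libraries than in both DMSO libraries, whereas GBE1 and PPARGC1A overlap.

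The stretches before the transcription starts of G6PC, PCK2 and FOXO1 are shown to set the promoter of the member that rose beside those of the 2 members with the largest falls. Each holds the 250 bases before the start, 5′ to 3′ on the strand of the gene, from RefSeq on GRCh38.p14, a different build from the hg19 of the submitters' processing notes. Capitals mark matches of 6 or more letters to the motifs searched. G6PC (RefSeq symbol G6PC1) lies at chr17:42900549-42900798 on the plus strand, PCK2 at chr14:24094061-24094310 on the plus strand and FOXO1 at chr13:40666642-40666891 on the minus strand.
G6PC: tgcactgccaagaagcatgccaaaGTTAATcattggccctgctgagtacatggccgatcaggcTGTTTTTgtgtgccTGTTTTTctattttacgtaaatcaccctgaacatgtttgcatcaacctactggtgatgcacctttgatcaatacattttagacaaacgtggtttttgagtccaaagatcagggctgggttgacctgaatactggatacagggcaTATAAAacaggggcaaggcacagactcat
PCK2: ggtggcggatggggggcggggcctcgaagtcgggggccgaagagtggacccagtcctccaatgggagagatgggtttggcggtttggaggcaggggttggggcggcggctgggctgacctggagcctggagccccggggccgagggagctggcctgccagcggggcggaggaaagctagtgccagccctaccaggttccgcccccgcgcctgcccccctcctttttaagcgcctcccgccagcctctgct
FOXO1: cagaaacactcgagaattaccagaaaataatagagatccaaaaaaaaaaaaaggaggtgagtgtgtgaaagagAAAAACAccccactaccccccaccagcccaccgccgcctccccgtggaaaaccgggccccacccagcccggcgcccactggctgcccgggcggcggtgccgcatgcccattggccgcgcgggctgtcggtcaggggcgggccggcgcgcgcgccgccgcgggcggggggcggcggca

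The G6PC stretch holds a TATA box (TATAAA) 29 bases before the start, an HNF1 core (GTTAAT) at 226 and an insulin response core (TGTTTTT) at 187 and again at 173. The last motif was added after this promoter had been seen. On either strand of 35116 promoters, in stretches of the same length, TATAAA was found in 10.7%, GTTAAT in 6.23% and TGTTTTT in 6.29%. The FOXO1 stretch holds TGTTTTT on the opposite strand at 177, and the PCK2 stretch holds none of the motifs. G and C make up 44% of the G6PC stretch, with 3 CpG pairs, 71.6% of the PCK2 stretch, with 17, and 67.2% of the FOXO1 stretch, with 27. The medians over all promoters are 58% and 11. Among the other members, TATAAA lies at 30 before the second start of SLC37A4 and at 32 before that of GBE1. The first start of PPARGC1A has CACGTG at 123 and TGACG at 119, and its second has TGTTTTT on the opposite strand at 178. GCGTG (aryl hydrocarbon receptor) was found at 4 places before the first start of PPARGC1A, at 136 and 47 before the first start of SLC37A4, at 173 before FBP1 and at 156 before GBE1. Also searched on both strands were TGACGTCA (1.65% of promoters), TTACGTCA (0.370%) and TGACG (21.2%, part of TGACGTCA) for the cAMP response, TGTTTAC for FOXO (2.98%), TGTTTTG for insulin (4.30%), CACGTG for the E-box (6.34%) and TTGCGCAA for C/EBP (0.131%). Of these, only CACGTG and TGACG matched a member. GCGTG was in 32.2% of promoters. RefSeq starts were matched for 8 of the 10 members, with 10 stretches in all, and PCK1 and GYS2 were unmatched. A match is a match of letters only, and its absence says nothing of the factor.

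The phosphoenolpyruvate carboxykinases, which turn oxaloacetate into phosphoenolpyruvate, differed in level. PCK2, the mitochondrial form and a known target of the stress factor ATF4, had 7082 and 6524 normalized counts in AMF, against 8314 and 11128 in DMSO. Both AMF libraries lay below both DMSO libraries, and the DMSO libraries differed from each other more than the AMF libraries did. PCK2 fell by 0.50 (log2, SE 0.0918, 95% interval -0.70 to -0.30, adjusted p = 0.000639). Without DMSO replicate 2 the limma call ended (-0.29), and without DMSO replicate 1 it was kept (-0.71). Both fits leave a lone DMSO library, so they do not hold the scatter between the DMSO libraries. With voom the call held without DMSO replicate 2 (-0.29), but in a fit that gave all genes of a level the same variance. TRIB3, a pseudokinase and another ATF4 target, named after its values were seen, had 9491 and 9183 normalized counts in AMF, against 8467 and 11798 in DMSO, so the same DMSO library was high. Unlike PCK2, TRIB3 overlapped between the groups and did not pass (-0.10, limma adjusted p = 0.502). It is a single gene, and ATF4 targets were not read as a set. The part of DMSO replicate 2 in the PCK2 change was not tested beyond leaving it out.

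PCK1, the cytosolic form and the classical hormone-regulated enzyme of the pathway, was close to the detection limit, with 11 and 12 reads in AMF, against 6 and 4 in DMSO. Both AMF libraries were above both DMSO libraries, but a floor of 3 reads (2.79 to 3.09 normalized counts) lies just under the lowest value. The ratio of AMF to DMSO reads, corrected for size factors, was 2.22, with a 95% exact interval of 1.02 to 5.22 that covers counting error only. The change of 1.03 (SE 0.546, 95% interval -0.14 to 2.21) did not pass (adjusted p = 0.177), and was 0.20 on the deposited log2 values. Per kilobase of exon, PCK2 stood at 1129 and 859 times the level of PCK1 in AMF, against 2256 and 4411 times in DMSO. These ratios rest on the few PCK1 reads above, and exon length counts the exons of all transcripts of a gene.

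FBP1, the liver fructose bisphosphatase, had 4 and 6 reads in AMF, against 1 and 3 in DMSO. All values lie at or near the floor, and the read ratio of 2.41 has a 95% exact interval of 0.695 to 10.5. The change of 1.03 did not pass (adjusted p = 0.330), and was 0.15 on the deposited log2 values. FBP2, the muscle form, had 4 and 4 reads in AMF, against 15 and 6 in DMSO (adjusted p = 0.192). Exons of FBP1 and of FBP2 overlap those of the antisense gene PCAT7, which had 118 and 79 reads in AMF, against 139 and 164 in DMSO, and fell by 0.69 (limma adjusted p = 0.00917). Without strand, reads cannot be told apart where these genes overlap.

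G6PC, the catalytic subunit of liver glucose-6-phosphatase, had 118 and 86.5 normalized counts in AMF, against 76.0 and 55.4 in DMSO. The groups did not overlap, but the lower AMF library was close to the higher DMSO library. G6PC rose by 0.63 (log2, SE 0.223, 95% interval 0.15 to 1.11, adjusted p = 0.0438). The call ended with a pseudocount of 0.1 (limma adjusted p = 0.0814), and without a filter on low values (0.0972). It also ended without DMSO replicate 1 (0.85, limma-trend adjusted p = 0.133) and without DMSO replicate 2 (0.41, adjusted p = 0.357). With voom the call was kept without DMSO replicate 1 (0.87) and lost without DMSO replicate 2 (0.42). Both of these fits gave all genes of a level the same variance. On the deposited log2 values, which compress low counts, the change was 0.31 and passed (limma adjusted p = 0.0442). SLC37A4, which carries glucose phosphate into the endoplasmic reticulum for that enzyme, had 1179 and 1124 normalized counts in AMF, against 1436 and 1325 in DMSO. Both AMF libraries lay below both DMSO libraries. SLC37A4 fell by 0.26 (SE 0.0655, 95% interval -0.40 to -0.12, limma adjusted p = 0.00648). Without DMSO replicate 1 the call ended with limma-trend (-0.20). It was kept with voom (-0.20), with the same limit on the variance as for G6PC. Its exons overlap those of TRAPPC4 on the opposite strand, which rose by 0.22 (limma adjusted p = 0.0248). Per kilobase, SLC37A4 stood at 5.33 and 6.92 times the level of G6PC in AMF, against 10.1 and 12.7 times in DMSO.

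G6PC3, the form of the phosphatase found in most tissues, had 1785 and 1732 normalized counts in AMF, against 1039 and 1183 in DMSO. It rose by 0.67 (SE 0.0689, adjusted p = 3.58e-06), with both AMF libraries above both DMSO libraries. G6PC2, the islet form, had 0 and 6 reads in AMF, against 0 and 0 in DMSO, so its reads came from 1 AMF library.

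**Figure D2:**
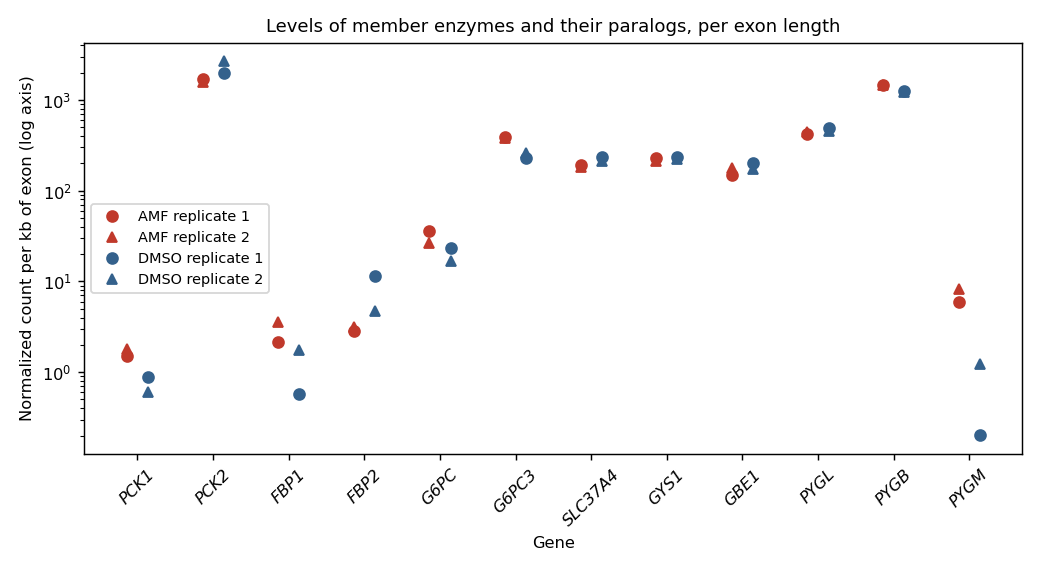
Normalized counts per kilobase of exon (log axis) of member enzymes and their paralogs in each library, AMF left of DMSO. PCK2 and PYGB lie near the top, and PCK1 and FBP1 near the bottom, in both groups. The lowest point is PYGM in DMSO replicate 1 (0.201), and FBP2 lies between 2.85 and 11.5.

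Among the glycogen genes, no member passed the limma test, although PYGL was at an unadjusted p of 0.0304 and GBE1 at 0.0403. PYGL, the liver glycogen phosphorylase, had 2033 and 2099 normalized counts in AMF, against 2344 and 2193 in DMSO. The groups did not overlap, and the change was -0.13 (SE 0.0557, 95% interval -0.25 to -0.01, adjusted p = 0.0848). GBE1, the branching enzyme, had 778 and 916 normalized counts in AMF, against 1048 and 902 in DMSO. The groups overlapped, and the change was -0.20 (SE 0.0901, adjusted p = 0.106). With voom on the recovered reads the call of GBE1 was made (-0.21, adjusted p = 0.0496).

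Of the forms of other tissues, PYGB and PYGM rose and GYS1 did not pass. PYGB, the brain phosphorylase, had 6519 and 6483 normalized counts in AMF, against 5645 and 5496 in DMSO, and rose by 0.22 (SE 0.0423, adjusted p = 0.000847). Per kilobase, PYGB stood at 3.44 and 3.31 times the level of PYGL in AMF, against 2.58 and 2.69 times in DMSO. PYGM, the muscle phosphorylase, had 32 and 40 reads in AMF, against 1 and 6 in DMSO, and rose by 3.25 (SE 0.595, adjusted p = 0.000631). The DMSO values of PYGM lie near the floor. GYS1, the glycogen synthase of muscle and most other tissues, had 963 and 894 normalized counts in AMF, against 997 and 949 in DMSO, and did not pass (-0.07, adjusted p = 0.521).

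**Figure D3:**
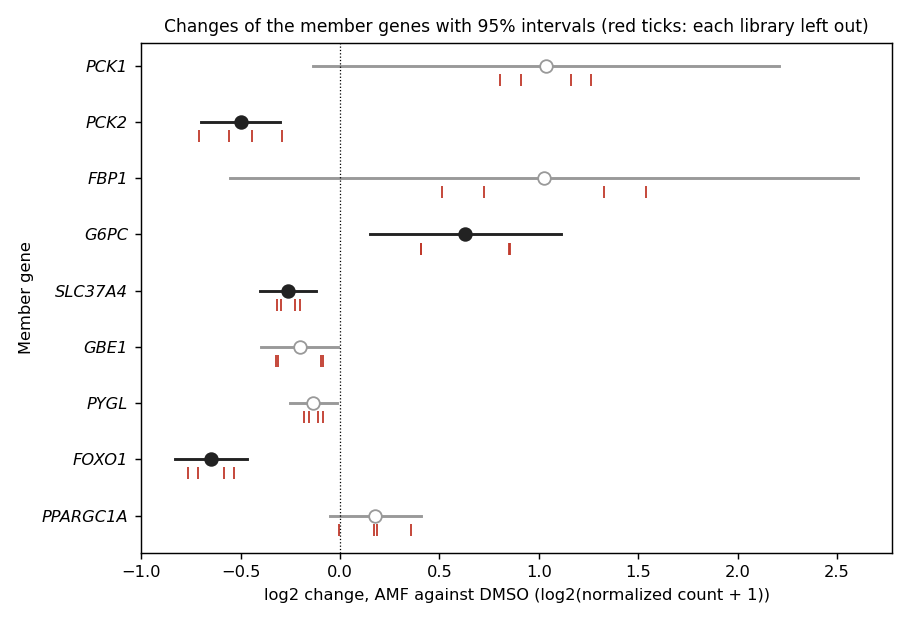
log2 change of each member, AMF against DMSO, with its 95% interval from limma (filled circles: adjusted p under 0.05), and red ticks for the change with each library left out. The estimates of G6PC, PCK1 and FBP1 lie above 0 with wide intervals, and the intervals of PCK1 and FBP1 cross 0. FOXO1, PCK2, SLC37A4, PYGL and GBE1 lie below 0 at every tick.

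Of the regulators, FOXO1 changed and PPARGC1A did not pass, and the difference between them was not tested. FOXO1, the forkhead factor through which insulin acts on the pathway, had 761 and 647 normalized counts in AMF, against 1054 and 1153 in DMSO. Both AMF libraries lay well below both DMSO libraries. FOXO1 fell by 0.65 (SE 0.0845, 95% interval -0.83 to -0.47, limma adjusted p = 3.06e-05). Without DMSO replicate 2 it narrowly missed with limma-trend (-0.59). There voom kept the call (-0.58), but in a fit that gave all genes of a level the same variance. FOXO1 shares exon sequence with the non-coding gene LINC00598 on the same strand, which had 108 and 120.5 normalized counts in AMF, against 158 and 183 in DMSO, and fell by 0.57 (limma adjusted p = 0.00989). Of the 50-base stretches of FOXO1 transcripts, 3.67% also occur in other genes.

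PPARGC1A, which encodes the coactivator PGC-1alpha, had 547 and 553 normalized counts in AMF, against 429 and 551 in DMSO. The AMF libraries were alike and DMSO replicate 2 lay between them. The change of 0.18 (SE 0.107, 95% interval -0.05 to 0.41) did not pass (adjusted p = 0.237). It was -0.00332 without DMSO replicate 1. Without DMSO replicate 2 it was 0.36, which missed with limma-trend. It passed with voom, where all genes of a level then had the same variance.

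Leaving out an AMF library leaves a lone AMF library that is assumed to vary like DMSO. limma-trend then called 0 of all genes, with 6611 at an unadjusted p under 0.05 without AMF replicate 1 and 6467 without AMF replicate 2, where voom called 1588 and 1738. This ended every member's call in limma-trend, and the signs of the 4 called members held. Of the members, voom kept FOXO1 alone without AMF replicate 1 (adjusted p = 0.0499) and none without AMF replicate 2. Leaving out a DMSO library leaves a lone DMSO library that is assumed to vary like AMF. The AMF libraries differed less from each other (chi-square per degree of freedom 2.272) than the DMSO libraries did (4.016). Without a DMSO library, voom gave all genes of a level the same variance.

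**Figure D4:**
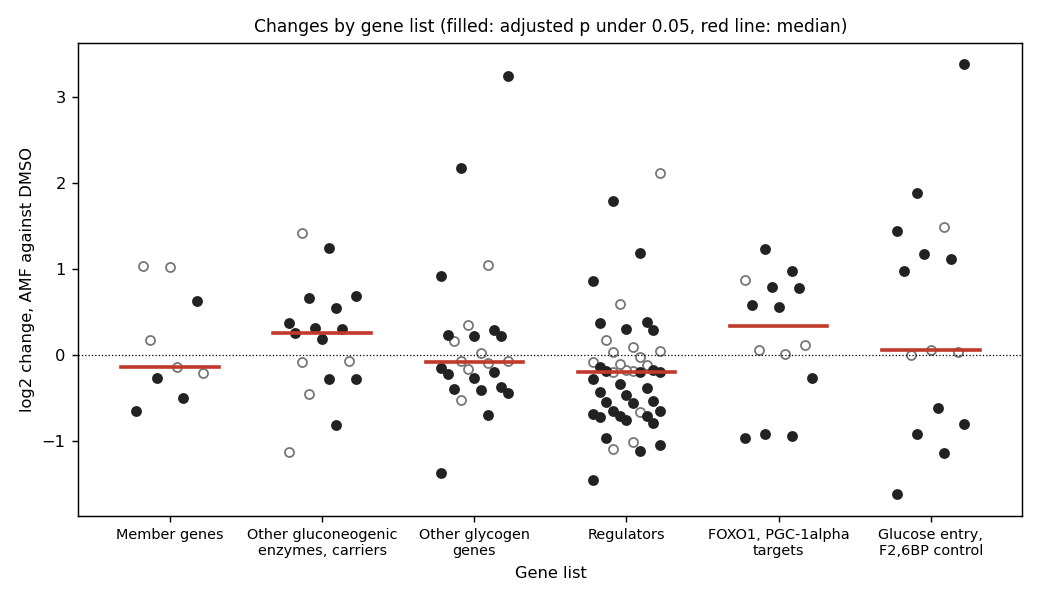
log2 change, AMF against DMSO, of each tested gene in the members and 5 related lists (filled: adjusted p under 0.05, red line: median of the list). Of the 48 regulators, 25 are lower and 7 higher, beside 16.2% lower and 15.6% higher of all genes tested.

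Of 17 other enzymes and carriers of gluconeogenesis tested, 9 rose, 3 fell and 5 did not pass, with a median log2 change of 0.26. Beside this and the lists below, 15.6% of all genes tested were higher and 16.2% lower. At a mean of 100 normalized counts or more, these shares were 23.6% and 31.1%. Pyruvate carboxylase (PC), which makes oxaloacetate, had 4166 and 3892 normalized counts in AMF, against 2530.1 and 2451 in DMSO, and rose by 0.69 (SE 0.0516, adjusted p = 1.27e-07). Exons of PC overlap those of LRFN4, which fell by 0.78. The mitochondrial alanine aminotransferase GPT2 had 6903 and 6772 normalized counts in AMF, against 11751 and 12231 in DMSO, and fell by 0.81 (adjusted p = 2.26e-09). The triose phosphate isomerase TPI1, shared with glycolysis, fell by 0.28 (adjusted p = 0.000414). Of 8 genes that move malate, aspartate and dicarboxylates, grouped after their values were seen, MDH1, MDH2, GOT1, GOT2, SLC25A10 and SLC25A11 rose by 0.18 to 0.55. The carrier SLC25A12 fell by 0.28 and SLC25A13 did not pass.

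Of 26 other glycogen genes tested, 7 rose, 10 fell and 9 did not pass, with a median log2 change of -0.08. PPP1R3B, the liver subunit that brings protein phosphatase to glycogen, had 46.4 and 39.1 normalized counts in AMF, against 122 and 103 in DMSO, and fell by 1.37 (SE 0.214, adjusted p = 0.000160). Of 6 such subunits, grouped after their values were seen, 1 rose, 2 fell and 3 did not pass. PPP1R3G, another of them, had 22 and 19 reads in AMF, against 2 and 6 in DMSO, and rose by 2.18 (adjusted p = 0.00763). EPM2A, which encodes the glycogen phosphatase laforin, fell by 0.69 (adjusted p = 0.00450). Of 5 phosphorylase kinase subunits, grouped after their values were seen, PHKA1 and PHKG1 rose, PHKA2, the liver alpha subunit, fell by 0.40, and 2 did not pass.

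Of 48 regulators tested, 7 rose, 25 fell and 16 did not pass, with a median log2 change of -0.20. Over all genes tested, 15.6% were higher and 16.2% lower. At a mean of 100 normalized counts or more, 23.6% were higher and 31.1% lower. PPARGC1B, a paralog of PPARGC1A, had 113 and 101 normalized counts in AMF, against 37.0 and 24.6 in DMSO, and rose by 1.79 (SE 0.250, adjusted p = 5.97e-05). PPRC1, of the same family and named after its values were seen, did not pass (-0.02, limma adjusted p = 0.742). It had 3591 and 3580 normalized counts in AMF, against 3712 and 3585 in DMSO. CREB3L3, a liver factor of the fasting response, had 672 and 622 normalized counts in AMF, against 299 and 270 in DMSO, and rose by 1.18 (adjusted p = 2.54e-07). The cAMP phosphodiesterase PDE4D had 855 and 907 normalized counts in AMF, against 2497 and 2332 in DMSO, and fell by 1.45 (adjusted p = 5.4e-10). The insulin receptor substrate IRS2 had 108 and 137 normalized counts in AMF, against 253 and 277 in DMSO, and fell (-1.12, adjusted p = 3.29e-05). All the families below were grouped after their values were seen. FOXO3 (-0.47) and FOXO4 (-0.75) fell, as FOXO1 did, and FOXO6, at no more than 7 reads, did not pass. The FOXA factors FOXA1 (-0.70), FOXA2 (-0.71) and FOXA3 (-0.96) fell, and so did the acetyltransferases CREBBP (-0.65) and EP300 (-0.54). Other families were also read in full. Of the insulin receptor and its substrates, IRS1 rose (0.38, adjusted p = 1.37e-05) and INSR fell (-0.38) beside IRS2. Of the salt-inducible kinases, which hold back the CREB coactivators, SIK3 rose (0.29), SIK2 fell (-0.65) and SIK1 did not pass (0.60). The CREB coactivators CRTC1 (-0.69) and CRTC3 (-0.27) fell and CRTC2 did not pass. NR4A1 fell (-1.05), and NR4A2 and NR4A3 did not pass. HNF4A, a nuclear receptor through which PGC-1alpha acts, rose by 0.86, with 13071 and 12569 normalized counts in AMF, against 7044 and 7053 in DMSO.

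Of 14 genes described as targets of FOXO1 or PGC-1alpha, 6 rose, 4 fell and 4 did not pass, with a median log2 change of 0.34. The tyrosine aminotransferase TAT had 131 and 121 normalized counts in AMF, against 62.0 and 64.7 in DMSO, and rose by 0.98 (adjusted p = 0.000709). TXNIP, a brake on glucose uptake, fell by 0.97 (adjusted p = 4.36e-07), and the sestrin SESN3 by 0.94 (adjusted p = 0.00128). IGFBP1, an insulin-regulated binding protein named after its values were seen, had 30393 and 31303 normalized counts in AMF, against 29647 and 31492 in DMSO, and did not pass (adjusted p = 0.832).

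Of 15 genes for glucose entry and for the opposing glycolytic steps, 6 rose, 5 fell and 4 did not pass, with a median log2 change of 0.06. The liver pyruvate kinase PKLR, which opposes PC and the carboxykinases, had 891 and 900.4 normalized counts in AMF, against 268 and 217 in DMSO, and rose by 1.89 (adjusted p = 5.34e-09). The glucose transporter SLC2A3 had 3913 and 4118 normalized counts in AMF, against 13396 and 11303 in DMSO, and fell by 1.62 (adjusted p = 2.1e-10). The hexokinase HK2, a form of muscle and many tumours, had 4640 and 4548 normalized counts in AMF, against 10145 and 10127 in DMSO, and fell by 1.14 (adjusted p = 9.2e-11). Across the 5 lists, 65.4% to 73.3% of tested genes were called, beside 31.8% of all genes tested. Among genes at a mean of 100 normalized counts or more the share was 54.7%. No test of a list was made.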

How the data were processed

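Poly(A)-selected, unstranded libraries of HepG2 cells (2 AMF, 2 DMSO) were sequenced, per the labels' protocols. The submitters' processing notes name STAR 2.7.0, featureCounts and hg19, and further steps are not stated there. The deposited table holds log2 values per gene symbol, with the form of a variance-stabilizing transformation, read from the values, and 0 columns of other samples. Inverting it gave whole reads, within 0.01 reads, for 100% of values. Size factors were 0.971 to 1.08.

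limma 3.58.1 (R 4.3.3, trend) was fitted to log2(normalized count + 1) for genes with a mean of at least 1, with group as the only term. The script was tested on simulated data. Read-ratio intervals are exact binomial (95%) on reads pooled over the 2 libraries of each group. They cover counting error only and leave out the scatter between libraries. Reads carry no molecular identifiers. Exon lengths and overlaps came from GENCODE 29 and promoters from RefSeq, both on GRCh38. The lengths merge the exons of all transcripts of a gene. The planned comparison of protein sequences was not run. The members, lists and motifs were chosen with earlier results of these data known. Named were all members, their paralogs, PC, and in each list the 2 largest rises and 2 largest falls that passed and averaged 10 normalized counts or more, of which 3 are not reported here. Alternatives were another pseudocount, other filters, each library left out, a replicate block, voom, the deposited log2 values, library totals as scaling and a shorter promoter window. matplotlib 3.10.9 and Python 3.11.15 drew the figures.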

Additional observations from a re-analysis of the deposited data

How the results depend on the processing

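With both groups complete, all members kept their direction under the other settings tried. The deposited log2 values compress low counts, with changes of 0.31 for G6PC, 0.20 for PCK1 and 0.15 for FBP1. The others moved less than 1.5 times, and PCK1 and FBP1 were not tested with a mean of at least 10. The call of G6PC ended with a pseudocount of 0.1 (log2 change 0.637) and without a filter (0.630), which leaves 0 members higher by limma, with 1 at an unadjusted p under 0.05 in both settings. GBE1 passed with voom (-0.209). With the replicate number as a block GBE1 also passed (-0.204) and 8157 genes were called, against 7578 without it. The block fit, too, gave all genes of a level the same variance. No replicate effect shared by the groups was seen (r = 0.0238 across 11137 genes between the replicate differences of AMF and DMSO). Whether libraries with the same number were prepared together cannot be told from this. A promoter window of 100 bases before and 50 after the start leaves 3 members with a match of 6 or more letters, against 5. With 1 library left out, by limma-trend or voom, 0 to 6775 genes were called, 0 to 3042 higher and 0 to 3733 lower. The log2 changes then ran, per member, over these ranges: PCK1 0.807 to 1.34, PCK2 -0.711 to -0.288, G6PC 0.407 to 0.870, FBP1 0.512 to 1.80, PPARGC1A -0.00376 to 0.358, FOXO1 -0.768 to -0.533, PYGL -0.183 to -0.0862, SLC37A4 -0.319 to -0.202, GBE1 -0.322 to -0.0863. PPARGC1A turned round without DMSO replicate 1 (-0.00332 by limma-trend, -0.00376 by voom). Without DMSO replicate 2, voom also called PPARGC1A (0.358), PYGL (-0.183) and GBE1 (-0.316). The same fits called 0 to 1 higher and 0 to 5 lower among the members, 0 to 9 higher and 0 to 3 lower among the gluconeogenic enzymes, 0 to 5 higher and 0 to 9 lower among the glycogen genes, 0 to 8 higher and 0 to 26 lower among the regulators, 0 to 7 higher and 0 to 4 lower among the targets, and 0 to 6 higher and 0 to 5 lower among the genes of glucose entry. The cause was not tested. PCK1 and FBP1 lie near the floor of 3 reads, and their few reads limit what their changes can show.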
